A study of Mus musculus with 20 samples.

Results

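Continuous (tonic) 10 nM gonadotropin-releasing hormone (GnRH) was compared with 8 pulses of the same dose over 4 h in LβT2 cells, an immortalised line of mouse pituitary gonadotropes. The comparison rests on 4 of the 20 arrays of the study, chosen by their sample titles: 2 of tonic 10 nM GnRH and 2 of 8 pulses of 10 nM GnRH, each pair coded B and C. All cells were grown on microcarrier beads, starved of serum and perifused in columns before RNA was taken. A pulse lasted 2 min and pulses came 28 min apart, so the cells met GnRH for 16 min in the pulsed columns and for 240 min in the tonic ones, a 15-fold difference in exposure at one concentration. Beside them stand 2 arrays each of 1 and of 4 pulses at 10 nM (coded B and C), of 1, 2, 4 and 8 pulses and of tonic GnRH at 100 nM, and of unstimulated cells (both coded A and D). Array C of tonic 10 nM GnRH carries a second label that gives it 1 pulse, against its title, and in 8 of the 20 samples the 2 labels disagree in this way. Groups follow the titles, and values without array C are given beside results that moved most without it. Whether the arrays of a group came from separate cultures is not said in the labels. The p-values therefore reflect only the spread between arrays within groups, pooled over all 20 arrays, which may be technical.

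GnRH is the hypothalamic peptide that drives gonadotropes to make and secrete luteinising and follicle-stimulating hormone. Its receptor couples to Gq, which raises calcium and activates protein kinase C and MAP kinases, and these switch on immediate early genes such as Egr1 and Fos, followed by feedback inhibitors of the same pathways. The hypothalamus releases GnRH in pulses, and continuous exposure is known for desensitising the gonadotrope.

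The 4 arrays had median signals from 721 to 802 and a Gapdh 3′ to 5′ ratio from 0.955 to 1, and precision is limited by having 2 arrays a pattern. Over all probe sets tested, arrays of one letter correlated at 0.978 (B) and 0.9854 (C), and arrays of one pattern at 0.9743 (tonic) and 0.9781 (8 pulses), against 0.9703 and 0.9771 for arrays that shared neither. Differences below are tonic minus 8 pulses on the log2(signal + 166.8) scale, which understates the change of dim genes, ± standard error, with n = 2 arrays a pattern. Adjusted p-values come from limma fitted to all 20 arrays.

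The 250 bases before the start of 4 genes are shown first, since these genes lead the results: Ier3, whose difference had the smallest p, Serpinb2 and Capn2, which held an AP-1 motif, and Hsph1, the leading heat shock gene. They are RefSeq sequences of build GRCm38.p6, read 5′ to 3′ on the strand of the gene. Capitals mark matches on either strand to AP-1 (TGANTCA) or Sp1 (GGGCGG).
Ier3, chr17:35821463-35821712, plus strand: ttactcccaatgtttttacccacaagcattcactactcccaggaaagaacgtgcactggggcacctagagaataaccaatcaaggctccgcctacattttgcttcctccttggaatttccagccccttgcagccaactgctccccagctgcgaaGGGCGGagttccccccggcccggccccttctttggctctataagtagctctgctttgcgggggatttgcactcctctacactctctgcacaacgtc
Serpinb2, chr1:107511173-107511422, plus strand: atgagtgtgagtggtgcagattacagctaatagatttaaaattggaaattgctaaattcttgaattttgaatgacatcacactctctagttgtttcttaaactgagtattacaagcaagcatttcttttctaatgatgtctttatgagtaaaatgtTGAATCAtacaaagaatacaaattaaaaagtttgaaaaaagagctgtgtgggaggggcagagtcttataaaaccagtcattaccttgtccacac
Capn2, chr1:182517611-182517860, minus strand: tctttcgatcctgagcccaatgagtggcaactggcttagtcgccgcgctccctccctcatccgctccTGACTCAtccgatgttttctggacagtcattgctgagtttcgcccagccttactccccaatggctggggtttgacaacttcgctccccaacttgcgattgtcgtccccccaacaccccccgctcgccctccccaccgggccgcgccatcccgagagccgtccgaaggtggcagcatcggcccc
Hsph1, chr5:149636337-149636586, minus strand: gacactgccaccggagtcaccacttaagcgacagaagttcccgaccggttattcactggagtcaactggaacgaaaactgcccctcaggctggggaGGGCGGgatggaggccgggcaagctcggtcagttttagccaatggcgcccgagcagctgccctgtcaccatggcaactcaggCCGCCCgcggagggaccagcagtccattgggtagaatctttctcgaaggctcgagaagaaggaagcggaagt
The window of Ier3 held 1 Sp1 match, those of Serpinb2 and Capn2 1 AP-1 match each, and that of Hsph1 2 Sp1 matches. Of 32851 RefSeq promoter windows of this length, 6.75% held AP-1, 32.7% Sp1, 4.7% the Egr motif GCGNGGGCG, 1.55% the full cAMP response element TGACGTCA, 17.8% the shorter TGACG, which also lies inside the full element, and 1.47% a CArG box. Promoters were given for 6 of the 8 leading higher genes and 7 of the 8 leading lower ones. At the first listed start, AP-1 was in 2 of those 6 and in 0 of those 7, Sp1 in 2 and 4, and TGACG in 0 and 2. The Egr motif, the full cAMP response element and the CArG box were in none of these 13 windows. A match describes letters only and does not show binding.

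Ier3, an immediate early gene tied to cell survival and MAP kinase signalling, had the smallest p of all probe sets. A probe set of Mmp12 had a larger difference, 1.46, with a wider error. The Ier3 signal was 9363 and 6201 on the tonic arrays B and C, against 2966 and 2654 on the arrays of 8 pulses. Both tonic arrays were above both pulsed ones, and the tonic signal was higher in both letters. The difference was 1.39 ± 0.23, a 2.62-fold higher level with the added constant, and its 95% interval ran from 0.91 to 1.87. Limma's adjusted p was 0.084. Deviations of same-letter arrays from their group means correlated at 0.13 to 0.345 at 10 nM. With the letter as a replicate block limma's adjusted p was 0.00745, but with that block on the 10 nM arrays alone Ier3 did not pass 0.05. Without tonic array C, whose labels disagree, the difference was 1.68. Over 36 alternatives the difference ranged from 1.1 to 1.68, and it passed the adjusted threshold in 7 of them.

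Limma called 0 of 8491 probe sets (0%) different between the patterns at an adjusted p under 0.05, and 220 (2.59%) had an unadjusted p under 0.05, of which 128 were higher and 92 lower with tonic GnRH. With the letter as a block 1 probe set was called (0.0118%), that of Ier3, and 425 had an unadjusted p under 0.05. Chance alone would give about 425 of the 8491 probe sets at that level, with or without the block. With the added constant, which understates changes of dim genes, the 95% interval lay within 2-fold either way for 7348 probe sets (86.5%). For dim probe sets this does not bound the change in signal to 2-fold. The median standard error was 0.229. Both tonic arrays were above both pulsed arrays for 1282 probe sets (15.1%) and below them for 1277 (15%). A difference of at least 1 with no overlap was seen for 17 probe sets above (0.2%) and 10 below (0.118%), and 13 of the 17 and 9 of the 10 had a mean log2 signal under 10, in the dim range. An exact permutation of 2 against 2 arrays cannot go below a two-sided p of 0.333, so no single-gene permutation test could pass.

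The 8 genes of smallest p with a higher mean under tonic GnRH were Ier3, Krt18, Trpv2, Fosl1, Capn2, Serpinb2, Myh9 and Angpt2. Their unadjusted p ran from 9.89e-06 to 0.00234 and their differences from 0.69 to 1.39. None passed limma's adjusted threshold, and in the probe set shown for each gene both tonic arrays were above both pulsed arrays. With the letter as a replicate block Ier3 passed (0.00745), and limma's adjusted p for the others ran from 0.264 (Myh9) to 0.538 (Angpt2). All 8 were also called higher than unstimulated cells over the 5 patterns of 100 nM GnRH, as were 6.37% of all probe sets. Those means come from other arrays, while the spread in the fit is shared by all 20. Without tonic array C, Myh9 differed by 1.07 and Angpt2 by 1.49.

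Fosl1 encodes a Fos-related subunit of the AP-1 transcription factor. Its signal was 2253 and 1729 with tonic GnRH and 1023 and 933 with 8 pulses, a difference of 0.91 ± 0.23 (limma's adjusted p 0.845). The dimmest tonic array thus lay well above the brightest pulsed one. Serpinb2, a serpin that inhibits plasminogen activators and whose probe set may match more than 1 transcript, had signals of 1062 and 1069 with tonic GnRH and 289 and 374 with 8 pulses. Its difference was 1.31 ± 0.35, or 2.48-fold with the added constant, and the tonic pair was nearly equal. Both of its pulsed signals were below 427, the level used to filter dim probe sets. Angpt2, a ligand of the Tie receptors of blood vessels, gave 1708 and 995 against 516 and 485, a difference of 1.15 ± 0.32.

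Krt18, a keratin of simple epithelia, had signals of 3110 and 3520 with tonic GnRH and 1347 and 1587 with 8 pulses, a difference of 1.09 ± 0.24 (limma's adjusted p 0.67). Myh9, a non-muscle myosin heavy chain, gave 19408 and 12914 against 10247 and 8161, a difference of 0.78 ± 0.22, which was 0.49 without tonic array B. Another probe set of Myh9 gave 15315 and 10044 against 10140 and 7066, a difference of 0.54 ± 0.29 with overlapping arrays. Capn2, the catalytic subunit of a calcium-dependent protease, gave 5403 and 4874 against 2863 and 2911, a difference of 0.80 ± 0.21 with the pulsed pair almost level. Trpv2, a calcium-permeable cation channel, gave 2902 and 3350 against 1666 and 2104, a difference of 0.69 ± 0.17. In Krt18 and Trpv2 array C was the higher of each pair, and in Myh9 array B was.

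The 8 genes of smallest p with a lower mean under tonic GnRH were Cacng2, Hsph1, Txnrd3, Prr5, Nr0b1, Hnrnpr, Ube2s and Isoc1. Their unadjusted p ran from 0.000463 to 0.00278, their differences from -1.19 to -0.52, and the lowest adjusted p from limma was 0.67. With the letter as a replicate block limma's lowest adjusted p among them was 0.39, for Hsph1. Over the 100 nM patterns 1 of the 8, Prr5, was called higher than unstimulated cells, and 2, Hnrnpr and Isoc1, were called lower, against 6.37% and 7.84% of all probe sets. Without tonic array C the differences were -1.17 for Txnrd3, -0.79 for Hnrnpr and -1.19 for Isoc1.

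Hsph1, a large heat shock protein that acts as a co-chaperone, had signals of 9119 and 10742 with tonic GnRH and 20599 and 14160 with 8 pulses. The difference was -0.78 ± 0.18, and -0.51 without array B of 8 pulses, the highest of the 4. Nr0b1, the orphan nuclear receptor DAX1 that restrains the gonadotrope factor encoded by Nr5a1, gave 18885 and 21634 against 27635 and 30489, a difference of -0.52 ± 0.14. Its patterns were apart by more than the arrays of either pattern. Hnrnpr, an RNA-binding protein, gave 2962 and 3894 against 5416 and 5050, and Ube2s, a ubiquitin-conjugating enzyme of the anaphase-promoting complex, gave 9086 and 8342 against 15396 and 12720.

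Txnrd3, a thioredoxin reductase, gave 1281 and 2152 with tonic GnRH against 3366 and 2838, and Isoc1 gave 2786 and 4797 against 7277 and 5931. In both the letter B arrays differed more than the letter C arrays. Cacng2, an auxiliary subunit of AMPA receptors, gave 181 and 124 against 508 and 591, and Prr5, a subunit of an mTOR complex, gave 212 and 177 against 652 and 660. The tonic signals of these last genes were below 427, the level used to filter dim probe sets, so their differences of -1.17 and -1.19 rest on dim spots.

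**Figure D1:**
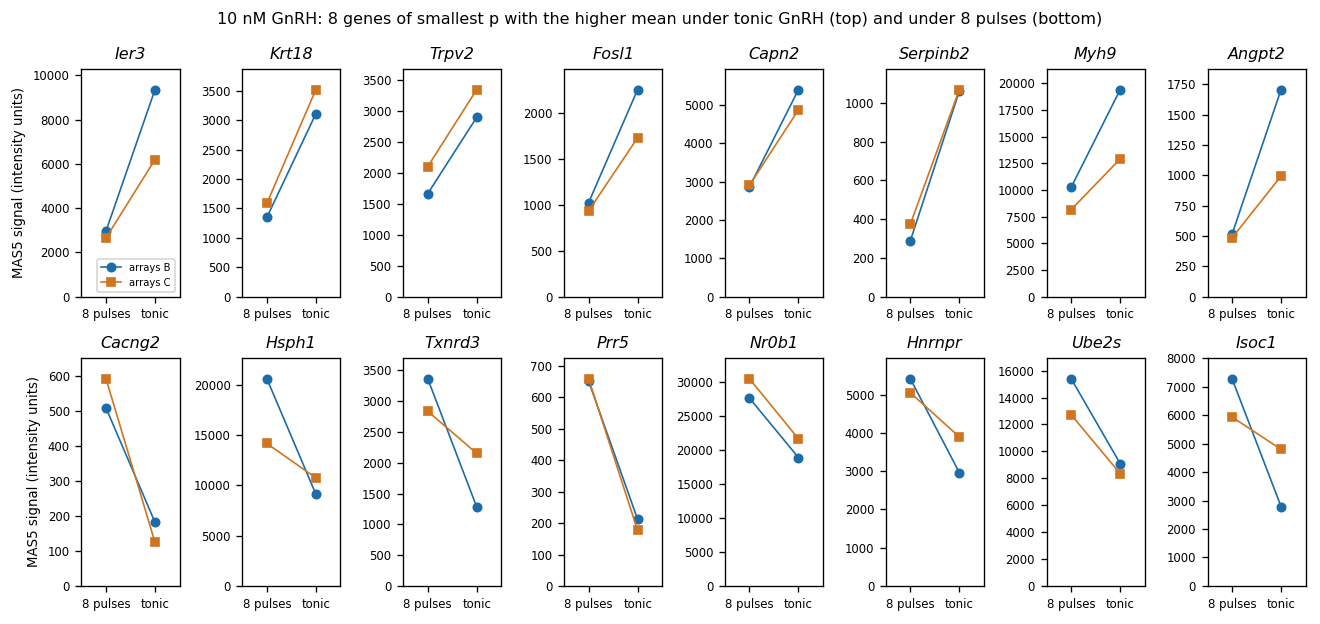
MAS5 signal (linear intensity units, each axis from 0) of the 16 leading genes on the 4 arrays at 10 nM, with a line joining the 8-pulse and tonic array of one letter. In the top row both tonic points lie above both 8-pulse points (Ier3 9363 and 6201 against 2966 and 2654), and in the bottom row both lie below (Nr0b1 18885 and 21634 against 27635 and 30489).

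The other 10 nM columns were set beside these for 4 of the leading higher genes and for Nab2 and Hsph1. Ier3 had signals of 1244 and 1446 in unstimulated cells, 1789 and 1124 after 1 pulse and 1347 and 1431 after 4 pulses. Only from 8 pulses on did both of its arrays exceed all of these. Fosl1 gave 289 and 269 unstimulated, 188 and 263 after 1 pulse and 403 and 490 after 4, the last above both unstimulated arrays. Its levels with 4 pulses, 8 pulses and tonic GnRH did not overlap with one another. Serpinb2 gave 147 and 222 unstimulated, 197 and 219 after 1 pulse and 40 and 201 after 4, so that it was separate from unstimulated cells only with 8 pulses or tonic GnRH. Krt18 gave 781 and 866 unstimulated, 853 and 775 after 1 pulse and 531 and 1091 after 4, where its arrays lay on either side of the unstimulated pair.

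Nab2, a corepressor that binds Egr proteins, had another profile. It gave 956 and 1329 unstimulated, 1576 and 1286 after 1 pulse, 2464 and 3169 after 4, 3512 and 3602 after 8 and 3926 and 3289 with tonic GnRH. Its tonic and 8-pulse arrays overlapped. Hsph1 gave 13797 and 14000 unstimulated, 7812 and 8599 after 1 pulse and 8666 and 11882 after 4. Only with 8 pulses were both 10 nM arrays above the unstimulated pair, array C barely so at 14160. The difference of 8 pulses from unstimulated cells was 0.29 ± 0.18 (limma's adjusted p 0.501). Unstimulated arrays carry the letters A and D and the 10 nM arrays B and C, and GnRH and letter cannot be told apart in that step.

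**Figure D2:**
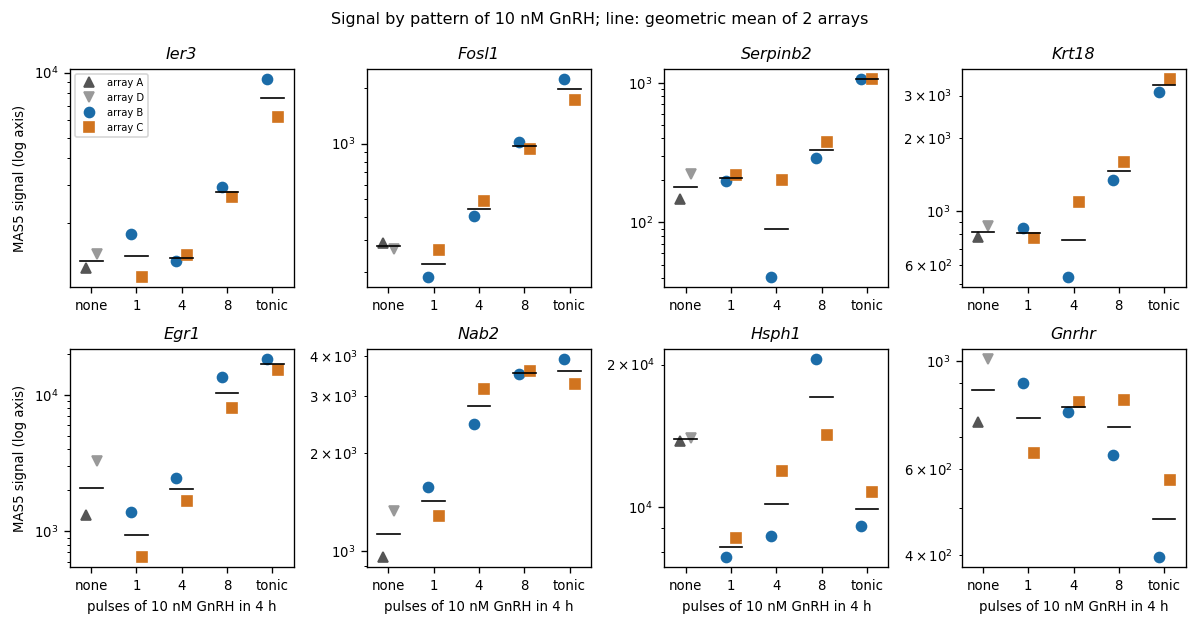
MAS5 signal (log axis) of 8 genes in unstimulated cells and after 1, 4 or 8 pulses or tonic 10 nM GnRH, 2 arrays a group with their geometric mean as a line. Ier3 stays between 1124 and 1789 up to 4 pulses and reaches 6201 and 9363 with tonic GnRH, while Nab2 is alike with 8 pulses (3512 and 3602) and tonic GnRH (3926 and 3289).

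Each pattern was also set against unstimulated cells, and these 2 comparisons share the unstimulated arrays with each other and their GnRH arrays with the comparison above. Tonic 10 nM GnRH was called higher at 330 probe sets (3.89%) and lower at 299 (3.52%), and 8 pulses at 133 higher (1.57%) and 56 lower (0.66%). Ier3 rose by 2.37 with tonic GnRH (limma's adjusted p 5.39e-06) and by 0.98 with 8 pulses (0.0302). Fosl1 rose by 2.27 and 1.36. Rrad, a small GTPase that restrains calcium channels, rose by 3.64 and 2.73, and Serpinb2 rose by 1.82 with tonic GnRH, with 0.51 (adjusted p 0.546) for 8 pulses. A gene called in one and not in the other is not thereby shown to differ between the patterns.

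Most probe sets higher at 100 nM than in unstimulated cells had the higher mean with tonic GnRH at 10 nM, and most of those lower there had the lower mean. The responsive probe sets were taken from 100 nM GnRH over its 5 patterns against unstimulated cells. Their differences come from none of the 4 arrays compared, although limma pools the spread over all 20 arrays: 541 probe sets (6.37%) were called higher there and 666 (7.84%) lower. Among the 541, the median difference of tonic from 8 pulses at 10 nM was 0.164, and 435 (80.4%) had the higher mean with tonic GnRH. The medians were 0.207 in letter B and 0.139 in letter C. Both tonic arrays were above both pulsed arrays in 227 (42%) and below in 29 (5.36%), against 15.1% and 15% of all probe sets.

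The 666 probe sets lower at 100 nM were displaced the other way, with a median of -0.119 (letter B -0.139, letter C -0.0888). Both tonic arrays were below both pulsed ones in 229 of them (34.4%) and above in 38 (5.71%). The remaining 7284 probe sets had a median of 0.000765, and 14% were above and 14% below. These sets were chosen with earlier results known and no test was made on them. Without tonic array C the medians were 0.202 and -0.107, and without array B of 8 pulses the second was -0.0779. Chosen only on the arrays whose labels agree, the sets were smaller and their medians were 0.308 and -0.241. At 100 nM and in unstimulated cells those arrays are of letter A alone. Only 8 and 4 pulses at 10 nM keep 2 arrays there, so the spread behind that choice came partly from a compared group.

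**Figure D3:**
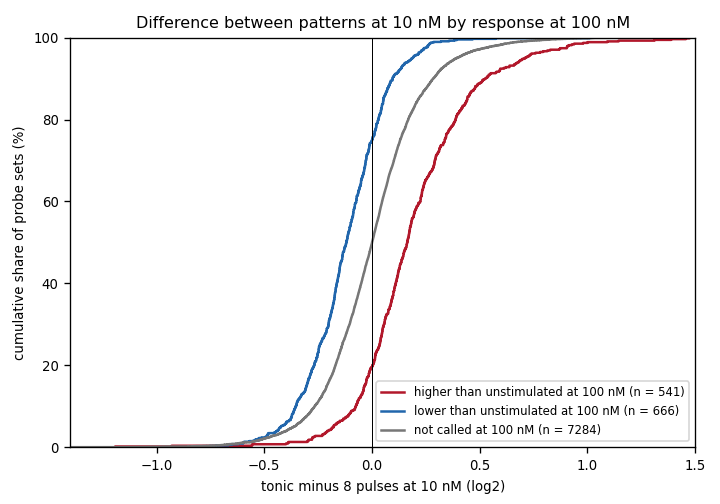
Cumulative share of probe sets (%) against the difference of tonic from 8 pulses at 10 nM (log2), for the 541 probe sets higher, the 666 lower and the 7284 not called at 100 nM against unstimulated cells. The curve of the higher set lies to the right of the uncalled set (medians 0.164 and 0.000765) and that of the lower set to the left (median -0.119).

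Gene lists are described by counts beside all 6216 genes tested, of which both tonic arrays were above both pulsed arrays in 14.5% and below in 15.7%. Of all these genes 49.1% had the higher mean with tonic GnRH, and the median difference was -0.00437. None of the list members passed limma's adjusted threshold, so the values that follow describe these 4 arrays. The lists were written with results of these data known, and most of the members described below were chosen after their values were seen.

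Immediate early genes, which encode the first transcription factors of a response, had the largest median of the 22 lists with all arrays, but not without tonic array B. Of 25 tested, 23 had the higher mean with tonic GnRH, and 18 did without tonic array B or without array C of 8 pulses. That count was 24 without array B of 8 pulses and 23 without tonic array C. Both tonic arrays were above in 12 and below in 1, and the median was 0.396 (0.366 to 0.402 under other scalings). Without tonic array B it was 0.177, below the feedback regulators (0.207), the cytoskeleton list (0.19) and the cAMP targets (0.18). Klf6, a Krüppel-like factor, gave 7522 and 7656 with tonic GnRH and 3785 and 4365 with 8 pulses, a difference of 0.87 ± 0.29. Crem, a cAMP-responsive modulator, gave 2921 and 3316 against 1726 and 2263, and Atf3, a stress-responsive factor, gave 36705 and 25762 against 24255 and 14484. In all of these the patterns did not overlap.

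Egr1, the best known early target of GnRH and a regulator of Lhb, gave 18457 and 15325 with tonic GnRH against 13497 and 8017. The arrays did not overlap, and the difference was 0.68 ± 0.38, with a 95% interval from -0.11 to 1.48 and 0.31 without array C of 8 pulses. A dimmer probe set of Egr1 had the other sign, at 364 and 186 against 376 and 321, a difference of -0.25 ± 0.40 with overlapping arrays. Its relative Egr2 went the other way, with 5722 and 4757 against 6471 and 6185, a difference of -0.27 ± 0.36. Fos, which pairs with Jun in AP-1, gave 19647 and 11168 against 13244 and 9510, and these overlapped. So did Nr4a1, a nuclear receptor induced by GnRH, at 26523 and 17786 against 19997 and 20399.

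Among 15 feedback regulators of MAP kinase, Egr and G protein signalling both tonic arrays were above in 6 and below in 2, with a median of 0.286 (0.132 without array C of 8 pulses). Rrad gave 11094 and 13235 with tonic GnRH against 6125 and 6591, a difference of 0.91 ± 0.32, and its relative Gem gave 8880 and 8575 against 5454 and 6628. Both of these calcium channel regulators were thus higher on both tonic arrays. Nab1 gave 6679 and 10580 against 7306 and 10604, with a 95% interval of the difference from -0.53 to 0.40. Nab2 had an interval from -0.41 to 0.44 and Rgs2, a regulator of Gq signalling, from -0.45 to 0.80. A 2-fold difference in these 3 genes lies outside those intervals, and without tonic array C the difference of Nab1 was -0.39. Dusp1, a MAP kinase phosphatase, gave 10655 and 9143 against 9930 and 6274, and Spry4, an inhibitor of the pathway, gave 613 and 690 against 1015 and 1186.

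The gonadotrope's own genes had a median of -0.00419 over 21 tested, with 2 above and 4 below. Without tonic array B the median was -0.135 and without tonic array C 0.0248. Cga, the subunit shared by the glycoprotein hormones, gave 96149 and 89455 with tonic GnRH against 89300 and 89920, an interval from -0.36 to 0.46. Lhb, the luteinising hormone subunit, gave 3487 and 2569 against 3090 and 3138, an interval from -0.46 to 0.35. Differences of 2-fold in either hormone subunit lie outside these intervals, and without tonic array C the difference of Lhb was 0.16. Gnrhr, the receptor itself, gave 395 and 569 against 643 and 833, a difference of -0.48 ± 0.26 with both tonic arrays the lower. Fshb was below the filter, with signals of 220 and 206 against 334 and 365, and was not tested.

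Inhba, an activin chain, gave 567 and 433 with tonic GnRH against 288 and 269, a difference of 0.57 ± 0.30 with no overlap. Both of its pulsed signals were below the filter level of 427. Inhbb, the other activin chain on the list, gave 4151 and 2717 against 4147 and 2638, so that its level followed the letter, and without tonic array C its difference was 0.31. In the wider list of 27 genes of GnRH receptor signalling both tonic arrays were above in 6 and below in 3, at a median of -0.00328 (0.042 without array B of 8 pulses and 0.0551 without tonic array C). The secretory granule list had 2 above and 1 below of 18, with a median of -0.00413 (0.0949 without array B of 8 pulses and -0.0655 without tonic array B). The targets of cAMP and CREB, several of them also immediate early genes, all had the higher mean with tonic GnRH, 8 of 8. That count was 5 without tonic array B, 7 without tonic array C or array C of 8 pulses, and 8 without array B of 8 pulses. Both tonic arrays were above in 3, at a median of 0.314 (0.152 without array C of 8 pulses and 0.18 without tonic array B).

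Genes of the cytoskeleton, listed with targets of serum response factor (SRF), were above on both tonic arrays in 15 of 28 and below in 0, with a median of 0.19 (0.14 and 0.16 under other scalings and 0.289 without tonic array C; 13 above and 1 below under quantile normalisation). Cnn2, a calponin that binds actin, gave 2305 and 3176 with tonic GnRH against 1247 and 1689, a difference of 0.83 ± 0.26. Tubb6, a beta tubulin, gave 16246 and 14719 against 11404 and 11082, and Lmna, the nuclear lamin, gave 19256 and 18119 against 15031 and 12466. Tpm4 and Vcl overlapped, at differences of 0.06 ± 0.15 and -0.05 ± 0.15.

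Secreted proteases, inhibitors and growth factors were above in 7 of 17 and below in 2, with a median of 0.121 that was 0.00195 without tonic array B, 0.0321 without array C of 8 pulses and 0.25 without tonic array C. Mmp12, a macrophage elastase, gave 6464 and 4605 with tonic GnRH against 3489 and 2424, a difference of 0.87 ± 0.33. Its other probe set gave 3839 and 2424 against 1209 and 832, a difference of 1.46 ± 0.39. Like that of Serpinb2, this other probe set may match more than 1 transcript. The 2 probe sets had one direction and unequal sizes. Plaur, the urokinase receptor, gave 393 and 357 against 246 and 81.2, all dim. Timp2, an inhibitor of metalloproteases, gave 292 and 145 against 465 and 454.

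Heat shock proteins had the lowest median, -0.189, with 0 of 16 above and 6 below. The median was -0.25 and -0.219 under other scalings, -0.0586 without array B of 8 pulses, -0.365 without array C of 8 pulses and -0.126 without tonic array C. Besides Hsph1, the mitochondrial chaperonin pair Hspd1 and Hspe1 was lower on both tonic arrays: Hspd1 gave 21502 and 25602 against 35073 and 30941, and Hspe1 gave 19536 and 23102 against 30351 and 25687. Their differences were -0.49 ± 0.16 and -0.39 ± 0.18. Hspa8, the constitutive member, gave 62512 and 66136 against 64517 and 65862 and overlapped. Hspa1a and Hspa1b, near-identical copies that probe sets may not separate, followed the letter more than the pattern, at 3228 and 1496 against 6018 and 2115 for Hspa1a.

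The list of the unfolded protein and integrated stress response holds Trib3 and Ppp1r15a, both induced downstream of the eIF2 alpha kinases. Trib3 gave 16762 and 9973 against 8655 and 6757, and Ppp1r15a gave 9767 and 6144 against 5921 and 3884. Hspa5, the main chaperone of the endoplasmic reticulum, gave 64124 and 58275 against 58953 and 64922, with a 95% interval from -0.38 to 0.35. The list had 5 of 23 above, 0 below and a median of 0.123 (0.05 without tonic array B, 0.0744 without array B of 8 pulses and 0.228 without tonic array C). Hypoxia and glycolysis genes had 8 of 24 above and 2 below at a median of 0.158, which was -0.0199 without tonic array B and 0.345 without tonic array C. Slc2a1, the glucose transporter, gave 11918 and 9759 against 7978 and 7808. Ribosomal protein genes had 10 of 12 above at a median of 0.15, but 4 above and a median of 0.0119 under quantile normalisation, and 0.1 without tonic array B. Cell cycle genes had 2 of 34 above and 6 below, with a median of -0.0837. That median was -0.0308 and -0.16 without arrays B and C of 8 pulses and -0.161 and -0.00966 without tonic arrays B and C, and 1 was above and 10 below with equal array medians.

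**Figure D4:**
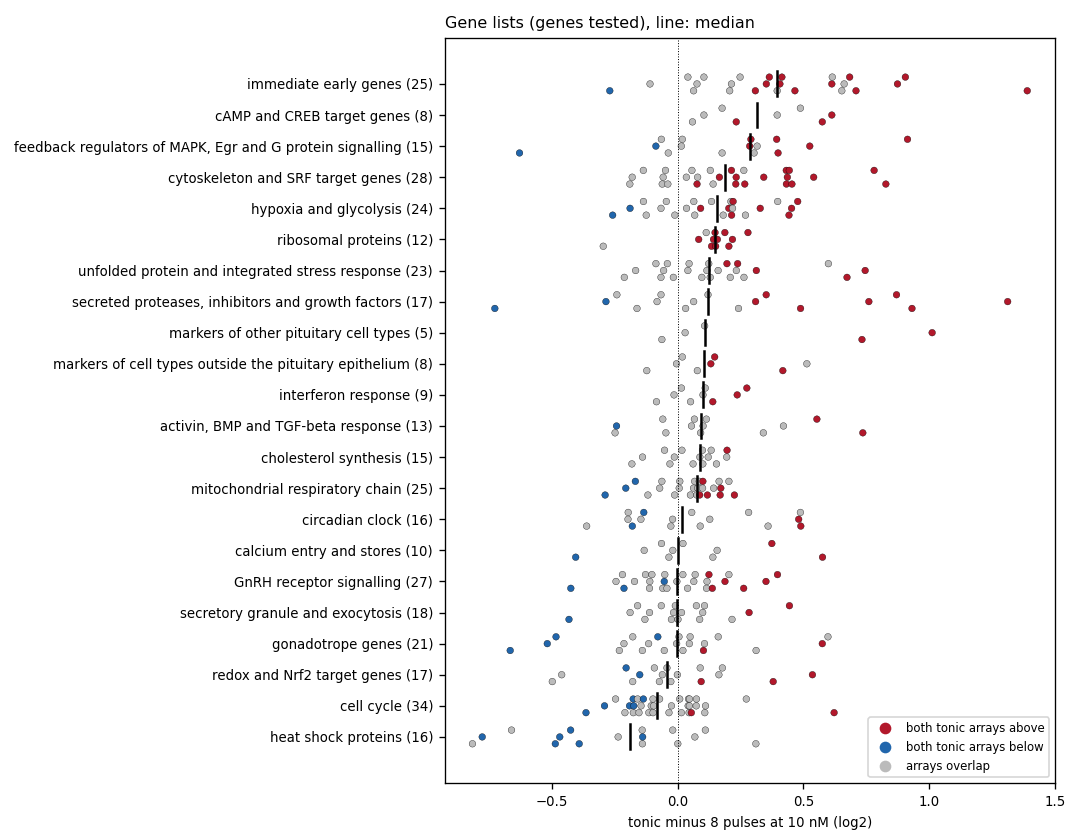
Difference of tonic from 8 pulses at 10 nM (log2) for every tested member of 22 gene lists, coloured by whether both tonic arrays were above or below both 8-pulse arrays, with the list median as a black line. Immediate early genes lie at the top (median 0.396, 12 of 25 above) and heat shock proteins at the bottom (median -0.189, 6 of 16 below).

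At 100 nM the same comparison sets 4 other arrays against each other, with the spread again pooled over all 20, and of these those coded D carry labels that disagree. Array A of 8 pulses at 100 nM had a Gapdh 3′ to 5′ ratio of 1.69, the highest of the 20, and the part of this in the results was not tested. Limma called 1 probe set there (0.0118%), with 328 at an unadjusted p under 0.05. It was that of Cacng1, an auxiliary subunit of calcium channels, at -1.50 ± 0.23 for 100 nM (adjusted p 0.0358) and 0.03 ± 0.23 for 10 nM. All 8 leading higher genes at 10 nM had the higher mean with tonic GnRH at 100 nM as well, with differences from 0.38 (Myh9) to 1.03 (Serpinb2). Ier3 had 0.58 ± 0.23 at 100 nM, where its signals were 12312 and 13219 with tonic GnRH and 6848 and 10533 with 8 pulses. None of these 8 passed the threshold at 100 nM.

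Of the 8 leading lower genes 5 had the lower mean with tonic GnRH at 100 nM too, among them Hsph1 (-0.45 ± 0.18) and Nr0b1 (-0.13 ± 0.14). Txnrd3, Prr5 and Ube2s had the opposite sign. Over all probe sets at an unadjusted p under 0.05 at 10 nM, 96 of 128 higher ones (75%) had the same sign at 100 nM. So did 59 of 92 lower ones (64.1%). Of all tested probe sets 47.5% had the higher mean with tonic GnRH at 100 nM. That share stands beside the higher ones, and its complement beside the lower ones. The 10 nM and 100 nM differences correlated at r = 0.13 over probe sets, which are not independent replicates. Of the probe sets apart by at least 1, 14 of the 17 above kept their sign at 100 nM and 1 of the 10 below did.

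The difference between the doses was tested as an interaction. Limma called 0 probe sets (0%), with 181 at an unadjusted p under 0.05. The genes of smallest p were Cacng1, at 1.53 ± 0.33, Txnrd3, at -1.39 ± 0.31, and Prnp, which encodes the prion protein, at -1.29 ± 0.29. Prnp gave 21283 and 19936 with tonic 10 nM GnRH against 35429 and 26031, and its difference was -0.56 ± 0.21 at 10 nM and 0.74 ± 0.21 at 100 nM. For Ier3 the interaction was 0.81 ± 0.33, with an unadjusted p of 0.0223.

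**Figure D5:**
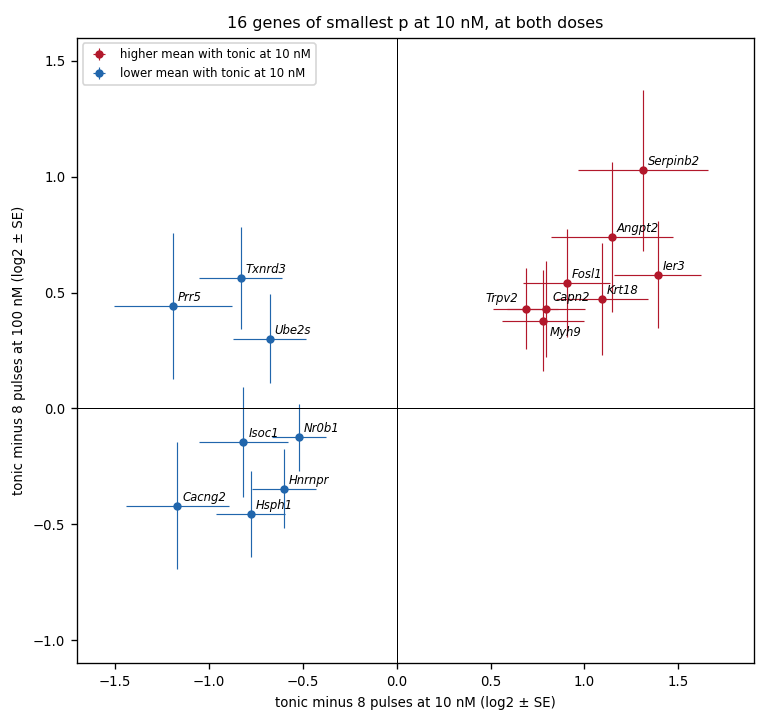
Difference of tonic from 8 pulses (log2 ± SE) at 10 nM (x axis) and 100 nM (y axis) for the 16 leading genes at 10 nM. All 8 genes higher with tonic GnRH at 10 nM lie above 0 at 100 nM, from 0.38 to 1.03, and 5 of the 8 lower genes lie below 0.

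The label of the cells was checked against markers. The 6 gonadotrope markers summed to 139760 and 123230 with tonic GnRH and 131370 and 128920 with 8 pulses. Cga, the shared subunit, made up most of each sum, at 96149 and 89455 against 89300 and 89920. The 9 markers of other pituitary cells found on the array summed to 7110 and 5725 against 5646 and 4542, and 13 markers of endothelium, fibroblasts, macrophages and blood to 18434 and 13744 against 14432 and 13697. Of these markers 5 of the 6, 4 of the 9 and 7 of the 13 passed the filter. No marker was at 0, and the lowest signal was 22.6. Prl, the lactotrope hormone, gave 566 and 551 against 224 and 164, a difference of 1.01 ± 0.37, while Gh, of the somatotrope, gave 2510 and 2735 against 2917 and 2251. Both pulsed signals of Prl were below the filter level of 427. In bulk RNA fewer cells of a type and less RNA per cell cannot be told apart, and the part of these markers in the results was not tested.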

How the data were processed

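Per the submitters' processing notes the deposited linear signal intensities were made by the authors with MAS5; the sources used here do not give its version, chip file or scaling target. The 2% trimmed means of all arrays lay near 2501, so a common scale had been set. The table held 12488 probe sets, 66 of them controls, which were dropped, and those above 427 (the 40th percentile of the table) on at least 2 arrays were kept, leaving 8491. Values were log2(signal + 166.8), the constant being the 25th percentile. Limma 3.58.1 in R 4.3.3 fitted the 10 groups (10 residual degrees of freedom, prior 8.2, eBayes with an intensity trend), with two-sided p-values adjusted by Benjamini-Hochberg at 0.05, and the procedure was tested on simulated data. Python 3.11.15, pandas 2.3.3 and matplotlib 3.10.9 served for promoters and figures.

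GEO's platform annotation gave 10833 probe sets 1 gene, 396 several, and did not list 1193. The 6216 genes tested are each shown by the probe set of highest mean log2 signal. Genes named by rule were those called or, where fewer than 5 were called in a direction, the 8 of smallest p in it, the 3 of smallest p in the dose comparison, and a set of GnRH-responsive genes; other names were chosen after their values were seen. The comparison, gene lists and markers were chosen with earlier results of these data known. The letters in the titles pair the arrays: over the 6 pairs of 10 nM groups, deviations from the group means of same-letter arrays correlated at 0.13 to 0.345. Alternatives were quantile scaling, equal medians, other constants and filters, other variance models, the letter as a block, fewer arrays, groups by the second label, and leaving out each array.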

Additional observations from a re-analysis of the deposited data

How the results depend on the processing

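Of 36 alternatives, 29 gave 0 probe sets past limma's threshold in tonic against 8 pulses at 10 nM, with 146 to 574 at an unadjusted p under 0.05, and 7 called Ier3. With the letter as a fixed or as a random replicate block the count was 1, and with the letter as a replicate block on the compared arrays alone it was 2, Ier3 and the probe set of Mmp12 with the larger difference. With the letter as a replicate block on the 10 nM arrays alone it was 0, with Ier3 at an adjusted p of 0.0536. Leaving out each of the 20 arrays gave counts from 0 to 1; the calls came without array A (adjusted p 0.0366) or D (0.037) of 8 pulses at 100 nM and without array B (0.0456) or C (0.0451) of 1 pulse at 10 nM. The difference of Ier3 ranged from 1.1 to 1.68 and its adjusted p from 0.00745 to 1. The dose difference had 0 calls in the main analysis and in its 30 alternatives, leave-one-out from 0 to 0 among them, with 75 to 422 at an unadjusted p under 0.05.

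Both tonic arrays were above both pulsed ones for 2019 probe sets with no filter and 799 with a stricter one, which test more and fewer probe sets. For the probe sets higher at 100 nM, leaving out each array gave medians from 0.146 to 0.202, and for those lower, from -0.159 to -0.0779. With the sets chosen only on arrays whose labels agree, the medians were 0.308 and -0.241, and the cause was not tested. The 100 nM and unstimulated arrays in that choice were all of letter A. The alternatives for these sets, for groups that do not overlap and for the gene lists were chosen after seeing the data. Of 1262 values of 35 named genes under the alternatives, 26 took another sign, and none that was called did so. Among values not called, 53 moved by more than the standard error of the main difference. With 2 arrays a pattern, small differences and dim genes are beyond what these arrays resolve.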

Other observations

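Several gene lists with no role in the sections above gave the following values at 10 nM, and none of their members passed limma's adjusted threshold. Most of these medians depended on single arrays. Of 25 genes of the mitochondrial respiratory chain, both tonic arrays were above both pulsed arrays in 6 and below in 3, at a median of 0.076. Under quantile normalisation 2 were above and 4 below at a median of -0.01, and the median was 0.00137 without array B of 8 pulses and 0.0141 without tonic array C. Of 15 cholesterol synthesis genes 1 was above and 0 below at a median of 0.0882, which was 0.0295 and 0.000932 without arrays B and C of 8 pulses and -0.0207 without tonic array B. Of 17 redox genes 3 were above and 2 below at a median of -0.0427. That median was 0.0695 and -0.124 without arrays B and C of 8 pulses, and -0.142 and 0.142 without tonic arrays B and C.

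Interferon response genes had 3 of 9 above at a median of 0.101, which was 0.0164 without array B of 8 pulses, 0.0611 without tonic array B and 0.157 without tonic array C. Activin, BMP and TGF-beta response genes had 2 of 13 above and 1 below at a median of 0.0913. It was 0.144 and -0.0335 without arrays B and C of 8 pulses, and -0.00875 and 0.166 without tonic arrays B and C. Calcium entry and store genes had 2 of 10 above and 1 below at a median of 0.000723, which was 0.182 and -0.0247 without arrays B and C of 8 pulses and -0.037 and 0.0774 without tonic arrays B and C. Circadian clock genes had 2 of 16 above and 2 below at a median of 0.0178, which was 0.174 and -0.0341 without arrays B and C of 8 pulses and 0.0321 and 0.185 without tonic arrays B and C.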
